A study of Mus musculus with 16 samples.

Results

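The genes described here are 33 genes of the mouse major histocompatibility complex (MHC) and of the antigen presentation machinery, taken by name from a table of 55414 Ensembl gene identifiers; all 33 were found. By role they comprise the 3 genes of classical class I molecules (B2m, H2-K1 and H2-D1), 10 genes of class Ib and class I-like molecules, 5 genes of class I peptide loading, the 3 class II chains, 7 genes of class II chaperones and processing, and 5 transcriptional regulators. Of these genes, 21 lie on chromosome 17, which carries the mouse MHC. The RNA came from 16 subcutaneous B6MyC-CaP tumours, 4 in each group, and each library is 1 tumour. B6MyC-CaP cells derive from prostate cancer of Hi-MYC mice, which express a MYC transgene in the prostate, after the strain was moved onto C57BL/6. Every host was a male C57BL/6 mouse, implanted at 6 weeks of age, so all groups share 1 cell line and 1 host strain. Vehicle mice ate chow freely. ENZ mice ate freely and received enzalutamide, an antiandrogen drug, at 20 mg/kg once a day by oral gavage. ADF mice went through alternate-day fasting, 24 h without food and 24 h with free access, without the drug. ADF+ENZ mice had the same fasting schedule and the same dose of enzalutamide. The labels do not say how long treatment lasted or whether tumours were taken on a fed or a fasted day.

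Class I molecules consist of a heavy chain, such as H2-K1 or H2-D1, and the light chain B2m, and they show peptides from inside the cell to CD8 T cells. The TAP transporter carries peptides into the endoplasmic reticulum, where tapasin (Tapbp) and its relative Tapbpl help to load them and Erap1 trims them. Class II molecules are built from an alpha and a beta chain (H2-Aa, H2-Ab1 and H2-Eb1), travel with the invariant chain Cd74, and exchange its remnant for peptide with the help of H2-DM; they are made mainly by dendritic cells, macrophages and B cells, and by other cells under interferon gamma. Ciita drives class II genes and Nlrc5 drives class I genes, both acting on DNA-bound RFX (Rfx5, Rfxap and Rfxank) and NF-Y at the conserved X and Y boxes of MHC promoters. C57BL/6 mice carry a defective H2-Ea gene, so the H2-Eb1 chain has no regular partner at the cell surface in this strain.

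The promoters of members on which the results turn are shown to make these shared boxes visible. RefSeq's promoter table (assembly GRCm38.p6) matched 24 of the 33 members, and the 200 bases before each start were searched on both strands for 6 letter patterns. A Y box (ATTGG, or CCAAT on the other strand) was present in 18 of the 24 members' windows, 75.0%, against 29.3% of 32505 windows of the same length over all genes. An X2 box core (TGACG or CGTCA) was present in 9 windows, 37.5%, against 15.7%, and an X1 box core (GCAAC or GTTGC) in 9 windows, 37.5%, against 25.1%. An interferon-response-like pattern (a pair of GAAA 2 bases apart, or of TTTC on the other strand) was present in 4 windows, 16.7%, against 2.27%. The STAT pattern TTCNNNGAA was in none of the 24 windows and in 5.51% of all windows, and the E box CACGTG was in 1 window, 4.17%, against 5.28%. The sequences below run 5′ to 3′ on the gene's strand and end at the base before the start, with matches of the X1, X2, Y and interferon-response-like patterns in capitals; a match is a description of letters and not a measured binding site.
H2-T23, chr17:36032702-36032901, minus strand: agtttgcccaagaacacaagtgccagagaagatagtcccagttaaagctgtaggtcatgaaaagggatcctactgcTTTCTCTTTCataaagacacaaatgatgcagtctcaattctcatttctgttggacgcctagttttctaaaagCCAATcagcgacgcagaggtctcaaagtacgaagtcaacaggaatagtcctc
Tapbp, chr17:33919278-33919477, plus strand: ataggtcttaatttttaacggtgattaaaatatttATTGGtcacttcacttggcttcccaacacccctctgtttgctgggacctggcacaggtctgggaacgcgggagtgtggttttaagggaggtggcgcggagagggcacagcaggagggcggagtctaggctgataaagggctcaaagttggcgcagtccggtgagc
B2m, chr2:122147487-122147686, plus strand: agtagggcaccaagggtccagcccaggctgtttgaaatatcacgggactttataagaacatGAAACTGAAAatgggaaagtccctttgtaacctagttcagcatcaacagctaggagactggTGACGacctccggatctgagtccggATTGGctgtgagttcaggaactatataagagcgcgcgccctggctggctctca
H2-K1, chr17:34000348-34000547, minus strand: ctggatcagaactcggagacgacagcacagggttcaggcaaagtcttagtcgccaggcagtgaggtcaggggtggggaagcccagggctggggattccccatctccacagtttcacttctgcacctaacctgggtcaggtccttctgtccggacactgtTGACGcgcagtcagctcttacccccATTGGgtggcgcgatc
H2-D1, chr17:35262894-35263093, plus strand: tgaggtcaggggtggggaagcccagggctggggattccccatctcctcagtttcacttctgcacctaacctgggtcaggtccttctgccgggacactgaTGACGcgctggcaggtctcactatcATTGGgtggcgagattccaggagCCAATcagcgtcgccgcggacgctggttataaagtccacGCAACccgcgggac
H2-Aa, chr17:34287824-34288023, minus strand: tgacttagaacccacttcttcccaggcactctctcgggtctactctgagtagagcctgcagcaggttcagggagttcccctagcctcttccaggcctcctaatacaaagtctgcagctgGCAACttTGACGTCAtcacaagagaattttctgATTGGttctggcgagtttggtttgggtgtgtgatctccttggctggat
H2-Eb1, chr17:34305667-34305866, plus strand: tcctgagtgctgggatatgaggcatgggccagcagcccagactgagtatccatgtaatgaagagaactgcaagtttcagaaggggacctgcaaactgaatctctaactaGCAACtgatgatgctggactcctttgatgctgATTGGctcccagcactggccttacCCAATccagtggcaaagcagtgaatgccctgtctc

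In these sequences the class II gene H2-Aa carried all 3 box patterns in order, with the X1 core beginning at position -81 from the start, the X2 core at -74 and the Y box at -48. H2-Eb1 carried the X1 core at -91 and a Y box at -59, with no X2 core. The class I genes B2m, H2-K1 and H2-D1 shared an X2 core followed by a Y box, at -78 and -53 in B2m, at -41 and -16 in H2-K1 and at -101 and -76 in H2-D1. H2-T23 had a Y box on the other strand at -52 and an interferon-response-like match at -124. Tapbp had a Y box at -165 and none of the other patterns in this window. The Tapbp and H2-D1 windows lie inside the spans of these genes in the annotation used for exon lengths. Those spans begin at chr17:33915899 and chr17:35262730, and the bases before them were not searched. The H2-T23 window lies partly inside the span of its gene, which on the minus strand begins at chr17:36032855. Both H2-T23 matches named above lie inside that span.

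Each library held between 10072489 and 25505655 counts in genes. The share of reads that fell in no annotated feature was 30.3 to 36.7% in the 4 ADF libraries and 21.2 to 27.9% in the other 12, and the ADF libraries also had fewer reads aligned to more than 1 place (4.10 to 5.03% against 6.51 to 7.96%) and fewer ambiguous reads (2.71 to 3.02% against 3.44 to 5.26%). These differences cannot be told apart from the ADF group, and their part in the values of members with close relatives was not tested. Values below are counts scaled by library size (CPM, TMM-adjusted), tests are edgeR quasi-likelihood tests with Benjamini-Hochberg adjustment over 18946 genes, and a gene is said to rise or fall where the adjusted p was under 0.05. Markers of the labelled prostate cancer were present in part: Krt8 was at 206 to 661 CPM, while Pbsn was at 0 in all 16 libraries and Krt5 averaged under 0.1 CPM. Leukocytes were present: the summed level of 9 leukocyte markers was 786 ± 75.4 CPM (SD, n = 4 in this and each other group) in Vehicle and 695 ± 96.7 CPM in ENZ, against 674 ± 94.5 CPM with ADF and 583 ± 74.1 CPM with ADF+ENZ, and 5 of these 9 markers fell in ADF+ENZ against Vehicle while none changed in ENZ or ADF against Vehicle. Of the 12 macrophage markers, 3 fell and 1 rose in ADF+ENZ against Vehicle, and Cd68 fell in ENZ (-0.48 ± 0.12, adjusted p = 0.0284) and in ADF (-0.44 ± 0.12, adjusted p = 0.0312). Of 6 endothelial markers 2 rose in ENZ (Tek and Emcn), and of 6 fibroblast markers Dcn fell in ADF and Pdgfra rose in ADF+ENZ; the part of these cells in the members' changes was not tested. The macrophage markers summed to 1293 to 1967 CPM, the 11 dendritic cell markers to 148 to 233 CPM and the 8 B cell markers to only 3.77 to 7.34 CPM. Of the dendritic cell sum, Fscn1 alone was 91.0 to 150 CPM. In RNA from whole tumours, fewer cells of a type and less RNA per cell cannot be told apart.

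Per kilobase of exon, B2m was the most abundant of these genes, at 593 CPM per kb over the 16 libraries. Ctss followed at 339, Cd74 at 288 and H2-D1 at 148 CPM per kb. The class II chains H2-Eb1, H2-Ab1 and H2-Aa stood at 93.2, 77.6 and 50.6 CPM per kb, close to Tapbp at 73.3 and H2-K1 at 51.0. The ranges of H2-Eb1, H2-Ab1, Tapbp, H2-K1 and H2-Aa overlapped widely between libraries, so the order among these neighbours is not separated by their spread. H2-T22 and H2-T23, at 15.8 and 14.4 CPM per kb, were the most abundant class Ib genes. The regulators were low, from 4.24 CPM per kb for Rfxap to 1.73 for Ciita. Lowest were H2-Q7 (0.307), H2-Ob (0.234), H2-Q6 (0.199), H2-Oa (0.175) and H2-Q10 (0.0837 CPM per kb). H2-Q6, H2-Oa and H2-Q10 had too few counts to be tested, which leaves 30 tested members.

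Changes among the members were mostly decreases on the class I side. In ENZ against Vehicle, H2-T23 and Tapbp fell and no member rose, 2 of 30 members where 5.43% of all genes were called, 3.62% lower and 1.81% higher. In ADF against Vehicle, 5 members fell (B2m, H2-D1, H2-T22, H2-T23 and Tapbp) and Rfx5 rose, 6 of 30 where 9.01% of all genes were called, 4.96% lower and 4.05% higher. In ADF+ENZ against Vehicle, 5 members fell (H2-T22, H2-T23, H2-T24, Tapbp and H2-Ob) and none rose, 5 of 30 where 12.5% of all genes were called, 6.53% lower and 5.97% higher. These 3 comparisons share the 4 Vehicle libraries. Estimates were below 0 for 25, 28 and 26 of the 30 tested members in ENZ, ADF and ADF+ENZ, with medians of -0.45, -0.53 and -0.59 on the log2 scale, where the medians of all tested genes were 0.01, 0.01 and 0.00. The count of members whose 4 libraries all lay below the 4 Vehicle libraries was 5 in ENZ (6.54% of all genes), 5 in ADF (8.55%) and 3 in ADF+ENZ (8.67%). All 4 libraries lay above for 2 members in ENZ (5.44%) and 1 in ADF (7.95%), and for 0 with ADF+ENZ (8.59%).

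H2-T23 encodes the heavy chain of Qa-1, a class Ib molecule that binds leader peptides of other class I chains and is read by the CD94/NKG2A receptor of NK and CD8 T cells. Its level was 59.4, 68.8, 72.5 and 75.4 CPM in the 4 Vehicle tumours and 30.4, 32.3, 26.7 and 31.6 CPM in the 4 ENZ tumours. It was 34.1, 38.0, 49.7 and 50.6 CPM in ADF and 26.1, 26.7, 12.9 and 32.5 CPM in ADF+ENZ. No treated tumour of any group reached the lowest Vehicle tumour, and no ADF+ENZ tumour reached the lowest ADF tumour. H2-T23 fell 2.28-fold in ENZ (log2 fold change -1.19 ± 0.20 SE, adjusted p = 0.00239) and 1.60-fold in ADF (-0.68 ± 0.19, adjusted p = 0.0391). It fell 2.77-fold in ADF+ENZ (-1.47 ± 0.20, adjusted p = 0.000386). Against ADF alone, ADF+ENZ was 1.73-fold lower (-0.79 ± 0.20, adjusted p = 0.0167), whereas against ENZ alone the estimate was -0.28 ± 0.20 (adjusted p = 0.533). The interaction of fasting and drug, the change with fasting under enzalutamide minus that without it, was 0.40 ± 0.28 (adjusted p = 0.429). The ENZ and ADF+ENZ calls against Vehicle held in all 24 alternative analyses, including the one with the mean log2 CPM of the 9 leukocyte markers as a covariate and the 16 that each left out 1 library.

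The class Ib gene H2-T22, whose product is recognised by a subset of gamma delta T cells, was at 55.1, 73.3, 69.5 and 67.4 CPM in Vehicle and 47.0, 56.7, 52.9 and 59.5 CPM in ENZ. In ADF it was at 45.2, 49.5, 56.3 and 49.2 CPM, and in ADF+ENZ at 42.6, 42.1, 42.3 and 55.2 CPM. Only the lowest Vehicle tumour lay within the range of the treated tumours, and the fourth ADF+ENZ tumour lay well above the other three. H2-T22 fell in ADF (-0.41 ± 0.11, adjusted p = 0.0275) and in ADF+ENZ (-0.54 ± 0.11, adjusted p = 0.00441), and its ENZ estimate was -0.29 ± 0.11 (adjusted p = 0.126). Its neighbour H2-T24 was at 12.5, 14.5, 15.8 and 16.9 CPM in Vehicle and at 11.6, 12.2, 12.8 and 14 in ENZ, against 10.7, 15.2, 17.2 and 16.6 in ADF and 8.82, 12.7, 7.01 and 10.8 in ADF+ENZ. H2-T24 was low in the combined group, whose range overlapped that of Vehicle through the lowest Vehicle tumour and that of ADF through the lowest ADF tumour. It fell in ADF+ENZ against Vehicle (-0.58 ± 0.17, adjusted p = 0.028) and against ADF (-0.58 ± 0.17, adjusted p = 0.0257). Both H2-T24 calls were lost without the first or the third ADF+ENZ tumour, the one against Vehicle also without the third or the fourth Vehicle tumour, and the one against ADF also without the third or the fourth ADF tumour; estimates over the fits that left out 1 library ran from -0.73 to -0.46. Both H2-T24 calls were also lost with only the 2 groups compared, with the leukocyte covariate and with reads in no feature as a covariate. The H2-T23 call against ADF was lost without the third or the fourth ADF tumour, with estimates between -0.96 and -0.60. It was also lost with no filter on low counts, with only the 2 groups compared and with reads in no feature as a covariate. That covariate fit called 0 genes higher and 0 lower over the whole table in ADF+ENZ against ADF, so its loss of the H2-T23 and H2-T24 calls there is uninformative. With no filter, H2-Q10, at 0 to 0.770 CPM, was called in place of H2-T23.

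Other class Ib and class I-like members did not pass the test in any comparison. H2-M3, which presents N-formylated peptides, ranged from 12.7 to 17.3 CPM in Vehicle and from 8.15 to 11.4 CPM in ADF; these ranges did not overlap, and the estimate was -0.50 ± 0.17 (adjusted p = 0.0678). Mr1, which presents vitamin B metabolites to mucosal-associated invariant T cells, ranged from 14.7 to 19.2 CPM in ADF and from 19.6 to 25.2 CPM in ADF+ENZ (0.36 ± 0.12, adjusted p = 0.0508). Cd1d1, which presents lipids to NKT cells, was scarce, at 0.709 to 3.75 CPM over all libraries, with estimates of 0.87 ± 0.39 in ADF+ENZ against Vehicle (adjusted p = 0.152) and 0.95 ± 0.40 against ADF (adjusted p = 0.106). H2-Q4 and H2-Q7, of the Qa-2 region, ranged from 2.63 to 16.1 and from 0.219 to 3.09 CPM, with estimates below 0 in all 3 treated groups against Vehicle and adjusted p between 0.166 and 0.632. H2-Q6 was at 0 to 1.10 CPM and H2-Q10 at 0 to 0.770 CPM. A count of 0 for H2-Q6 in the third ENZ tumour allows up to 0.180 CPM and in the third ADF+ENZ tumour up to 0.328 CPM. Close relatives share sequence: 13.5% of 100-base stretches of the H2-Q7 transcript, 14.6% of Cd1d1, 10.8% of H2-Q6, 9.38% of H2-T22 and 3.93% of H2-T23 occur in another gene, so reads there could be split or dropped. H2-K1, B2m, H2-T24 and H2-M3 had no such stretch.

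Tapbp, the tapasin gene, was at 293, 493, 324 and 374 CPM in Vehicle and at 195, 196, 222 and 245 CPM in ENZ. It was at 223, 258, 288 and 279.6 CPM in ADF and at 243, 173, 199 and 249 CPM in ADF+ENZ. Each treated tumour lay below each Vehicle tumour. Tapbp fell 1.73-fold in ENZ (-0.79 ± 0.15, adjusted p = 0.00466), 1.42-fold in ADF (-0.50 ± 0.15, adjusted p = 0.0426) and 1.72-fold in ADF+ENZ (-0.78 ± 0.15, adjusted p = 0.00322). The ENZ call held in all 24 alternative analyses, and the ADF+ENZ call in 23, ending with the mean log2 level of the leukocyte markers as a covariate (-0.32, adjusted p = 0.179). For ADF+ENZ against Vehicle that fit called 208 of 18946 genes higher and 299 lower, against 1131 and 1238 in the reported fit. Exons of Zbtb22 and a second gene overlap 24.9% of Tapbp exon bases on the opposite strand, and no source used here states whether counting used strand; Zbtb22 itself was at a mean of 33.5 CPM and its estimate in ENZ was 0.04 ± 0.16 (adjusted p = 0.934). The TAP subunits pointed the same way without passing the test. Tap1 ranged from 28.8 to 52.2 CPM in Vehicle and from 20.1 to 23 CPM in ENZ, a gap with an estimate of -0.82 ± 0.30 (adjusted p = 0.13), and Tap2 had -0.70 ± 0.24 (adjusted p = 0.0986). Tapbpl and Erap1 had estimates between -0.33 and -0.09 against Vehicle, with adjusted p from 0.168 to 0.728.

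The classical class I genes fell only in part. B2m was at 501, 773, 549 and 665 CPM in Vehicle and 508, 543, 509 and 544 in ENZ, against 347, 417, 469 and 428 in ADF and 403, 407, 458 and 637 in ADF+ENZ. The ADF tumours all lay below the Vehicle tumours, whereas the ENZ tumours lay inside the Vehicle range and the fourth ADF+ENZ tumour stood apart from the other three. B2m fell 1.50-fold in ADF (-0.58 ± 0.15, adjusted p = 0.0209), with estimates of -0.24 ± 0.15 in ENZ (adjusted p = 0.38) and -0.39 ± 0.15 in ADF+ENZ (adjusted p = 0.0897). H2-D1 was at 404, 661, 467 and 585 CPM in Vehicle and 301, 356, 333 and 294 in ENZ, against 280.5, 343, 373 and 315 in ADF and 320.2, 305, 240.1 and 536 in ADF+ENZ. Its ENZ and ADF ranges lay below the Vehicle range, and again the fourth ADF+ENZ tumour was high. H2-D1 fell in ADF (-0.69 ± 0.20, adjusted p = 0.0452) and just missed the threshold in ENZ (-0.72 ± 0.20, adjusted p = 0.0508); in ADF+ENZ the estimate was -0.59 ± 0.20 (adjusted p = 0.0668). H2-K1 had estimates of -0.73 ± 0.31, -0.61 ± 0.31 and -0.65 ± 0.31 in ENZ, ADF and ADF+ENZ, with adjusted p of 0.208, 0.23 and 0.194. In the interaction, none of the 30 members passed the adjustment, where 3.1% of all genes did. At an unadjusted p under 0.05 there were 4 of 30 members, and the share of all genes at that threshold is not given here. The 4 were B2m (0.44 ± 0.21), H2-D1 (0.82 ± 0.29), Tapbp (0.51 ± 0.21) and Rfx5 (-0.33 ± 0.15), with adjusted p from 0.12 to 0.228.

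**Figure D1:**
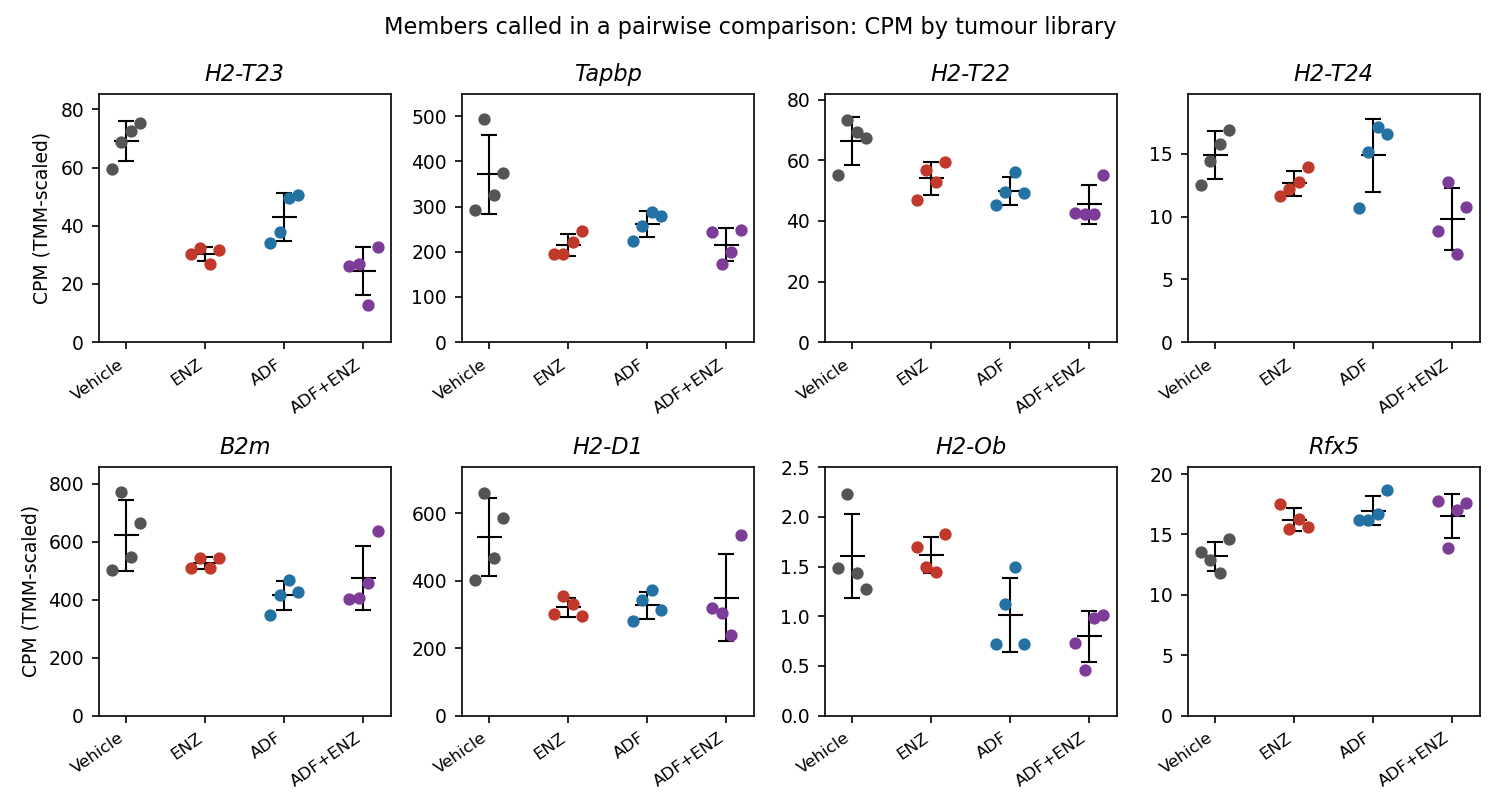
CPM (TMM-scaled, linear axis from 0) of the 8 genes called in at least 1 pairwise comparison, 1 point per tumour in each of the 4 groups, with bars at the mean ± SD. H2-T23 and Tapbp lie below all Vehicle tumours in each treated group, B2m does so only in ADF, and Rfx5 is the gene that rose.

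The calls of ADF against Vehicle depended on single tumours. None of the 6 was called without the second Vehicle, the first ADF or the fourth ADF tumour, and 1 was called without the third Vehicle or the second ADF tumour. Calls over all genes also changed, from 767 higher and 940 lower with all tumours. Without the second Vehicle tumour these counts were 289 and 488. Without the first or the fourth ADF tumour they were 631 and 756, and 232 and 378. Without the third Vehicle or the second ADF tumour they were 268 and 445, and 565 and 701. The members called were 2 without the fourth Vehicle, the second ENZ or the third ADF tumour and 3 without the third ENZ tumour. Over all genes, 617 were called higher and 874 lower without the fourth Vehicle tumour, and 675 and 831 without the second ENZ tumour. Without the third ADF or the third ENZ tumour these counts were 468 and 587, and 704 and 869. No member was called with the mean log2 level of the leukocyte markers as a covariate, where 367 of all 18946 genes were called higher and 513 lower. With the unassigned share as a covariate, the measure in which the ADF libraries stood apart, none was called either, but that fit called only 1 gene higher and 5 lower over the whole table. The estimates of these 6 genes kept their direction in all 24 alternatives. The opposite occurred in ADF+ENZ against Vehicle: without the fourth ADF+ENZ tumour the count rose from 5 to 14 members, all lower, namely the same 5 with B2m, H2-K1, H2-D1, H2-Q4, H2-Q7, Tap1, Tap2, Erap1 and Nlrc5. Over all genes that fit called 1104 higher and 1182 lower of 19319, against 1131 and 1238 of 18946 with all tumours. Without the first Vehicle tumour 7 members were called, and without Vehicle tumour 3, ADF+ENZ tumour 1 or ADF+ENZ tumour 3 it was 3 members. Over all genes, 802 were called higher and 1063 lower without the first Vehicle tumour. In the other 3 fits, in the order named, these counts were 662 and 841, 780 and 879, and 500 and 702.

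Between treated groups few members differed. None was called in ADF+ENZ against ENZ, where 1.09% of all genes were called by edgeR, and DESeq2 and limma-voom also called 0 members. At an unadjusted p under 0.05 there were 2 members, H2-Ob and H2-T22. The share of all genes at that unadjusted threshold is not given here. Against ADF, 2 of 30 members were called in ADF+ENZ, H2-T23 and H2-T24, both lower, where 16.3% of all genes were called, 7.54% lower and 8.72% higher. All 4 ADF+ENZ tumours lay below the ADF tumours for 1 member, H2-T23 (9.93% of all genes), and above them for 1, Mr1 (10.6%). No library-level gap separated the classical class I genes between these groups, with estimates from -0.14 to 0.20 for B2m, H2-K1 and H2-D1 in both comparisons.

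**Figure D2:**
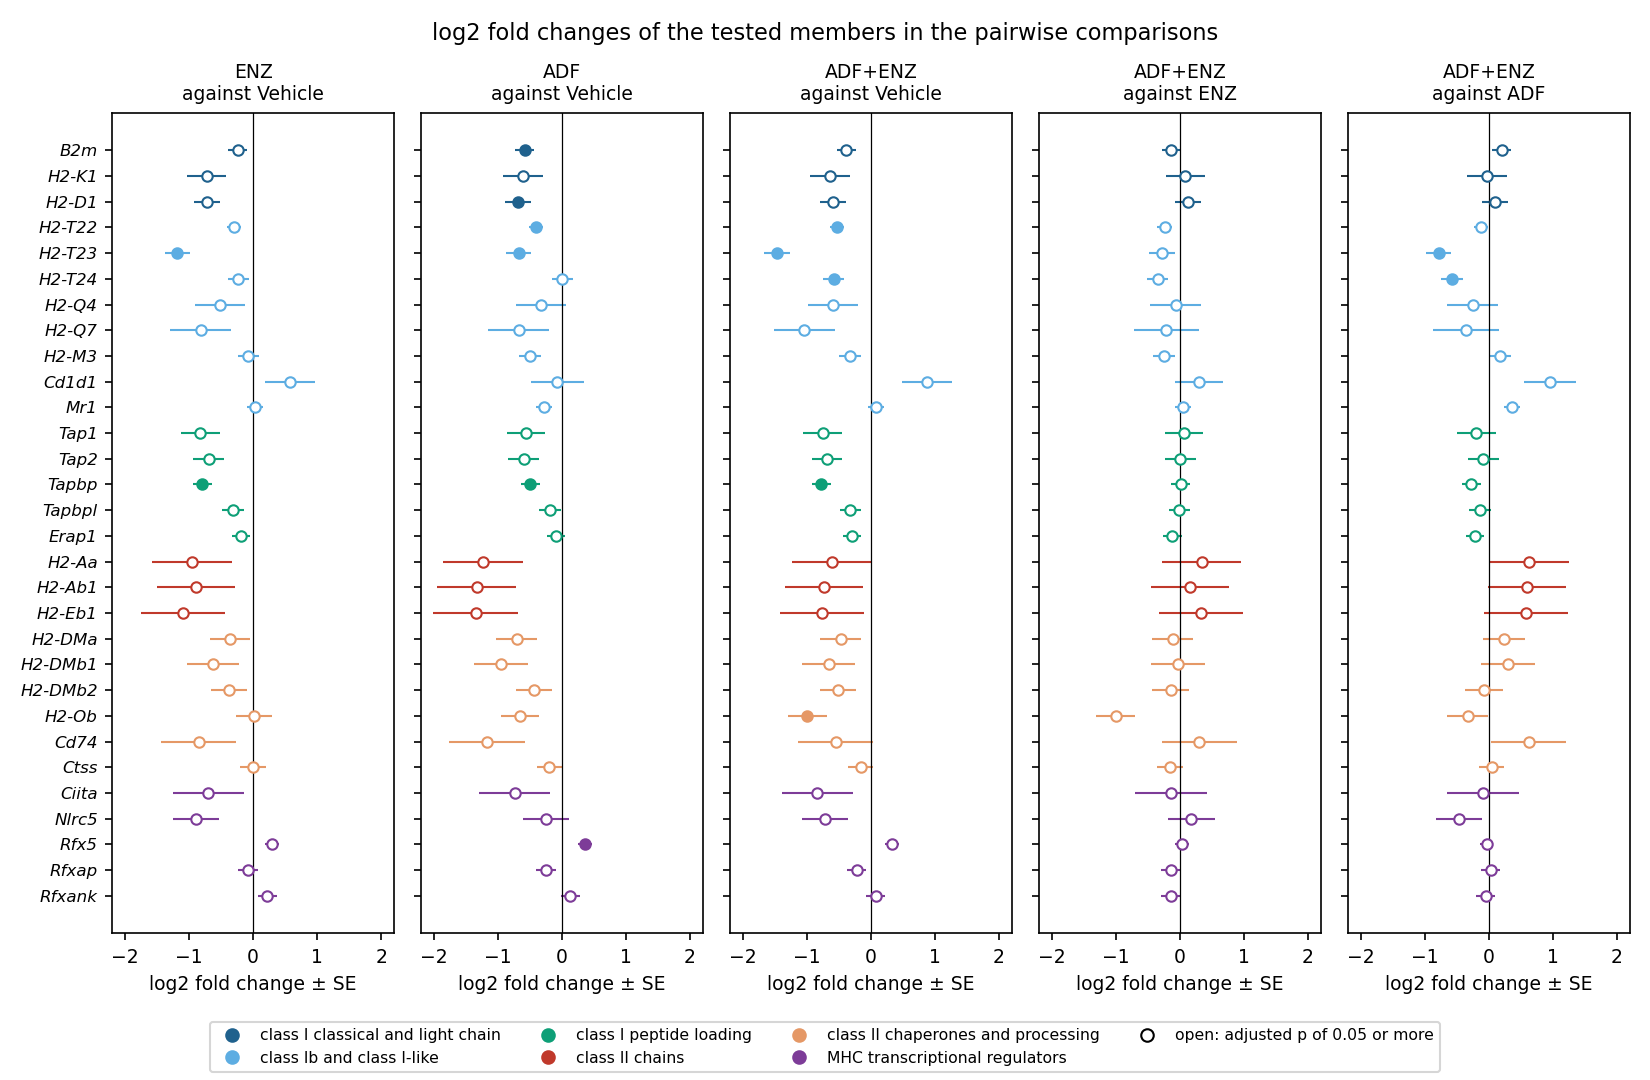
log2 fold change ± SE of the 30 tested members in the 5 pairwise comparisons, coloured by role, with filled points for adjusted p under 0.05. Most points lie left of 0 in the 3 comparisons against Vehicle, and the class II chains have the longest error bars.

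The class II chains varied widely between tumours of a group. H2-Ab1, the beta chain of I-A, was at 162, 485, 118 and 496 CPM in Vehicle and at 133, 289, 152 and 105 CPM in ENZ. It was at 60.9, 117, 212 and 109.7 CPM in ADF and at 97.4, 160.3, 92.8 and 399 CPM in ADF+ENZ. Tumours 2 and 4 of Vehicle and tumour 4 of ADF+ENZ were the highest, and all groups overlapped. H2-Aa and H2-Eb1 had the same highest tumour as H2-Ab1 in each group. Estimates for the 3 chains were -1.10 to -0.89 in ENZ (adjusted p 0.391 to 0.457), -1.35 to -1.24 in ADF (0.192 to 0.233) and -0.77 to -0.61 in ADF+ENZ (0.467 to 0.562), with SE of 0.61 to 0.67. None of the 3 was called in any comparison or in any of the 24 alternative analyses. With a standard error of this size, decreases of more than 2-fold remained below the threshold. Cd74, the invariant chain, moved alongside, at 363, 1140.0, 276 and 1109 CPM in Vehicle and 317, 692, 367 and 221 in ENZ, against 192, 293, 512 and 284 in ADF and 245, 429, 269 and 1021 in ADF+ENZ. Its estimates were -0.85 ± 0.59, -1.17 ± 0.60 and -0.55 ± 0.59 (adjusted p 0.465, 0.233 and 0.585).

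Of the class II helpers, H2-Ob, a chain of the H2-O modulator of peptide loading, was the one member called. It was at 1.49, 2.23, 1.44 and 1.27 CPM in Vehicle and 1.70, 1.50, 1.44 and 1.83 in ENZ, against 0.720, 1.13, 1.50 and 0.717 in ADF and 0.735, 0.465, 0.986 and 1.01 in ADF+ENZ. The ADF+ENZ tumours lay below every Vehicle and every ENZ tumour. H2-Ob fell 1.99-fold in ADF+ENZ against Vehicle (-0.995 ± 0.300, adjusted p = 0.0356), and against ENZ the estimate was -1.01 ± 0.30 (adjusted p = 0.108). The call was lost without tumour 1, 2 or 3 of either Vehicle or ADF+ENZ (estimates -1.18 to -0.79 over the fits that left out 1 library). It was also lost with limma-voom, with no filter, with only the 2 groups compared and with the leukocyte covariate. Over all 24 alternative analyses the estimates ran from -1.18 to -0.48, with adjusted p up to 0.533. H2-O is known from B cells and some dendritic cells; none of the 3 B cell markers and none of the 10 dendritic cell markers with enough counts to be tested was called in that comparison (the lists hold 8 and 11), and their part in the result was not tested. H2-DMa, H2-DMb1 and H2-DMb2, which encode the H2-DM peptide exchanger, had estimates from -0.96 to -0.36 against Vehicle and adjusted p from 0.163 to 0.578; about 13.7% of H2-DMb1 stretches of 100 bases are shared with H2-DMb2. Ctss, the cathepsin that cleaves the invariant chain, was at 333 to 649.9 CPM with estimates of 0.00, -0.20 and -0.16 (adjusted p 0.995, 0.555 and 0.64). H2-Oa was at 0 to 0.478 CPM and was not tested.

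**Figure D3:**
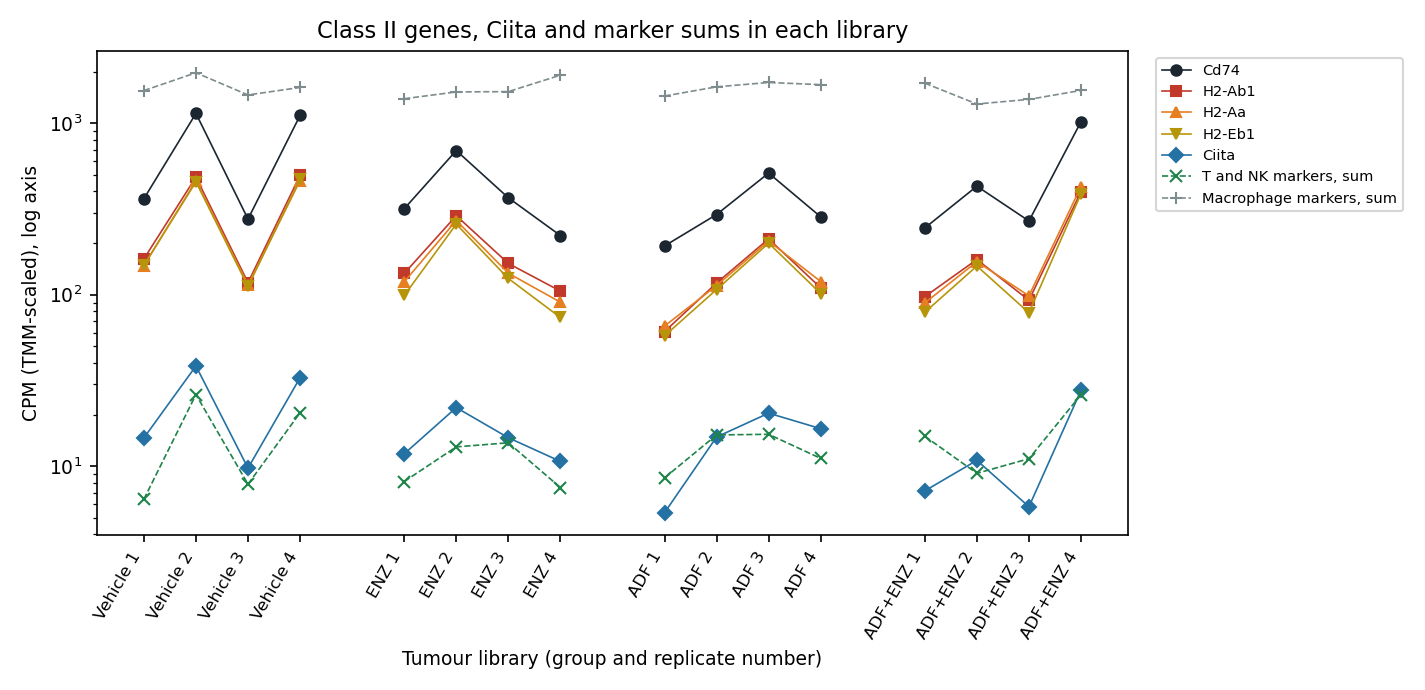
CPM (TMM-scaled, log axis) of the class II chains, Cd74 and Ciita in each of the 16 tumours, with the sums of the T and NK cell markers and of the macrophage markers as dashed lines. The class II genes and Ciita rise and fall together from tumour to tumour and peak in Vehicle tumours 2 and 4 and ADF+ENZ tumour 4, while the macrophage sum stays between 1293 and 1967 CPM.

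The class II chains, Cd74 and Ciita had the largest spread between tumours of a group among the 30 tested members. The pooled within-group SD of log2 CPM was 0.93 for H2-Eb1, 0.88 for H2-Aa, 0.87 for H2-Ab1, 0.84 for Cd74 and 0.83 for Ciita. The median over all tested genes was 0.24 and the 90th percentile 0.555. For H2-K1 it was 0.45, for H2-D1 0.31 and for B2m 0.23, and the lowest members were H2-T22 (0.16) and Rfx5 (0.12). The split did not follow class throughout: the low-level genes H2-Q7 (0.79), Cd1d1 (0.64) and H2-Q4 (0.63) also lay beyond the 90th percentile, while H2-Ob (0.37) and Ctss (0.31) lay below H2-K1. The summed level of the 3 class II chains ran from 343 to 1431 CPM in Vehicle, a 4.17-fold span, and that of H2-K1 with H2-D1 from 559.7 to 935 CPM, a 1.67-fold span. In ADF+ENZ the spans were 4.57-fold and 2.50-fold. The ratio of the first sum to the second was 1.15 ± 0.561 (SD, n = 4 here and in the following groups) in Vehicle and 1.01 ± 0.439 in ENZ, against 0.765 ± 0.281 with ADF and 1.05 ± 0.412 with ADF+ENZ, so the group means differed by less than the SD within Vehicle. By class, the median estimate of the 16 tested class I genes was -0.42, -0.50 and -0.59 in ENZ, ADF and ADF+ENZ, and that of the 9 tested class II genes -0.63, -0.96 and -0.61. The median SE was 0.18 for class I and 0.41 to 0.42 for class II, and 2, 5 and 4 class I genes were called against 0, 0 and 1 class II genes.

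**Figure D4:**
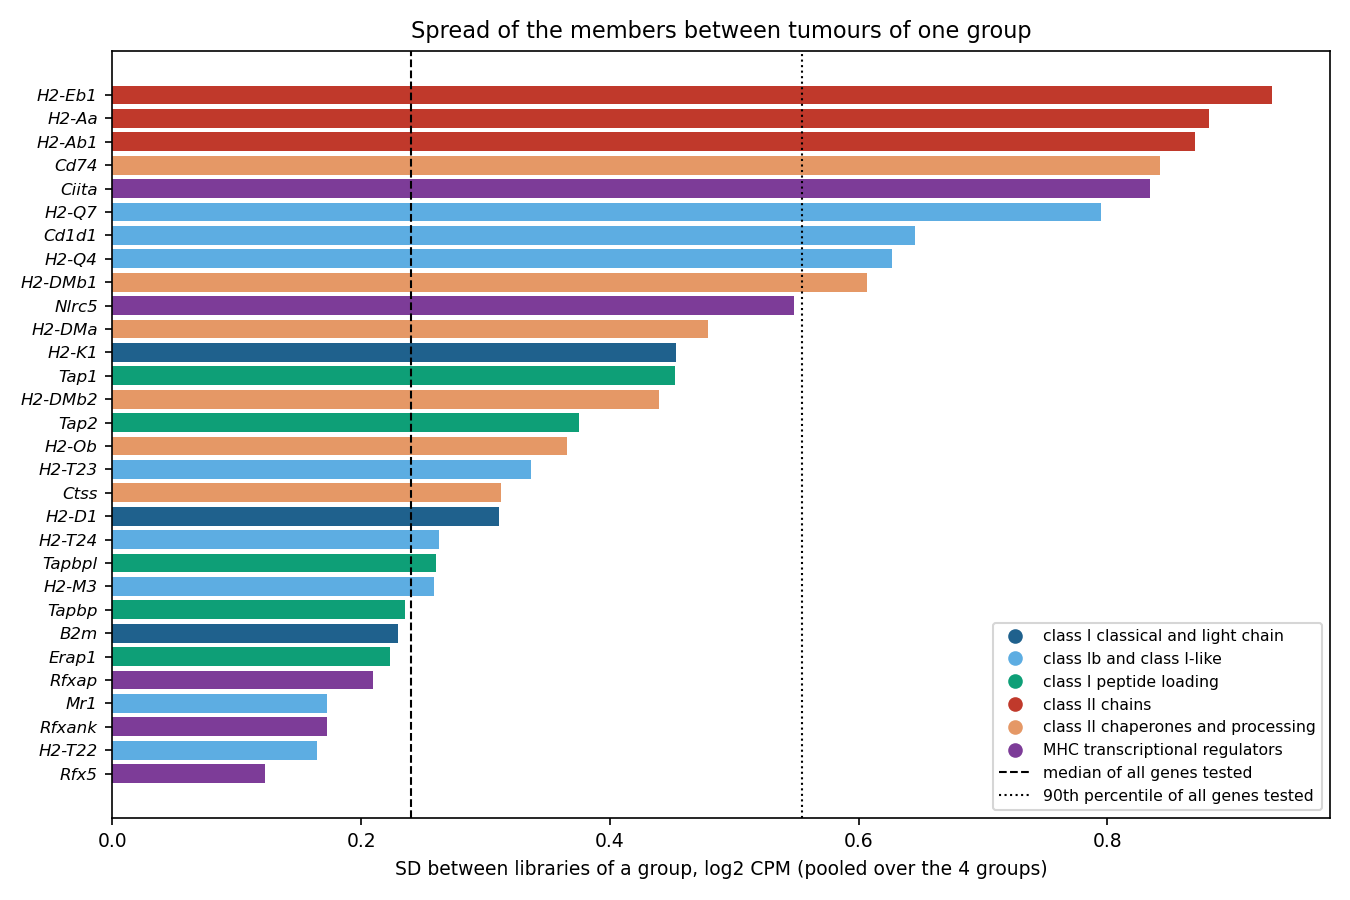
Pooled SD of log2 CPM between tumours of a group for the 30 tested members, coloured by role, with the median and the 90th percentile of all tested genes as dashed and dotted lines. The class II chains, Cd74 and Ciita hold the 5 longest bars and lie beyond the 90th percentile.

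Among the regulators, Rfx5, the DNA-binding subunit of RFX, went against the direction of the class I genes. It was at 13.6, 12.9, 11.8 and 14.6 CPM in Vehicle and 17.5, 15.4, 16.3 and 15.7 in ENZ, against 16.2, 16.2, 16.7 and 18.7 in ADF and 17.7, 13.9, 17 and 17.6 in ADF+ENZ. Every ENZ and ADF tumour lay above every Vehicle tumour. Rfx5 rose 1.28-fold in ADF (0.36 ± 0.11, adjusted p = 0.04), and the estimates were 0.29 ± 0.11 in ENZ (adjusted p = 0.113) and 0.32 ± 0.11 in ADF+ENZ (adjusted p = 0.0519). On the opposite strand, B230398E01Rik overlaps 26.8% of Rfx5 exon bases. Nlrc5, the class I transactivator, was at 21.9, 40.9, 18.3 and 39.8 CPM in Vehicle and 14.2, 19.2, 17.1 and 14.4 in ENZ, against 14.8, 22.9, 30.3 and 33.5 in ADF and 16.1, 16.1, 8.76 and 30.6 in ADF+ENZ. It was high in the Vehicle tumours 2 and 4 and in the ADF+ENZ tumour 4, where class II was also high, but it was at a like level in the ADF tumours 3 and 4, and in ADF tumour 4 the class II chains summed to only 331 CPM. Its estimates were -0.90 ± 0.36 in ENZ (adjusted p = 0.179), -0.26 ± 0.36 in ADF (0.694) and -0.73 ± 0.36 in ADF+ENZ (0.208). Ciita, given here because it was seen to follow class II, was at 14.6, 38.4, 9.75 and 32.8 CPM in Vehicle and 11.8, 22, 14.7 and 10.7 in ENZ, against 5.36, 14.8, 20.4 and 16.6 in ADF and 7.19, 10.8, 5.81 and 27.7 in ADF+ENZ, with adjusted p of 0.356 to 0.531 against Vehicle. Rfxap and Rfxank, the other RFX subunits, stayed between 7.04 and 12.3 and between 5.29 and 8.50 CPM, with no call.

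The tumours ordered alike by class II and Ciita, and less closely by class II and the T and NK cell markers. Over the 16 tumours, 8 relations of log2 levels were computed, chosen after the values were seen; they are given as descriptions without a p. The class II chain sum and Ciita had Pearson's r = 0.923 and Spearman's rho = 0.850, and r = 0.880 without the 2 tumours farthest from the median. Within groups, as deviations from the group means, r was 0.961. The class II sum and the sum of H2-K1 and H2-D1 had r = 0.847 and rho = 0.750 (0.707 without 2 tumours), and the H2-K1 and H2-D1 sum and Nlrc5 had r = 0.845 and rho = 0.859 (0.738 without 2). H2-T23 and Nlrc5 had r = 0.783 and rho = 0.744, with r = 0.619 without 2 tumours and 0.765 within groups. These genes share libraries, depth and scaling, and the relations are measured across whole tumours.

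Markers of other cells moved with class II in some tumours. The summed level of 13 T and NK cell markers was 6.42, 26.2, 7.85 and 20.5 CPM in Vehicle and 14.9, 9.09, 11.1 and 26.1 CPM in ADF+ENZ, high in the same 3 tumours as class II, and 7.52 to 15.4 CPM in the 8 tumours of ENZ and ADF. Over 16 tumours its r with the class II sum was 0.729 and its rho 0.538, and r fell to 0.524 without 2 tumours, so the relation rests in part on Vehicle tumour 2 and ADF+ENZ tumour 4. As deviations from the group means, with all 16 tumours, r was 0.824. The r with the class II sum was 0.281 for the macrophage markers, 0.474 for the dendritic cell markers and 0.366 for the leukocyte markers. As deviations from the group means these were 0.285, 0.562 and 0.253. The dendritic cell sum rested mainly on Fscn1 (91.0 to 150 CPM), Zbtb46 (21.7 to 39.2) and Itgax (11.6 to 71.8). Flt3, Xcr1, Clec9a, Batf3 and Ccr7 reached at most 2.90 CPM, so this r says little about them. The part of T and NK cells, macrophages, dendritic cells and other leukocytes in the class II levels was not tested. Ifng, which encodes interferon gamma, the main known inducer of Ciita, had 14 to 99 counts per library; it was at 0.832 to 1.71 CPM in Vehicle and 2.92 to 4.0 CPM in ADF+ENZ, without overlap, and rose there (1.33 ± 0.36, adjusted p = 0.0215), in the group where 5 members fell and none rose.

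Genes upstream and downstream of the members, 62 genes in 5 lists of which 47 could be tested, had calls only toward lower levels against Vehicle. In ENZ 0 of the 47 rose and 4 fell, where 3.62% of all genes fell. For ADF 0 rose and 8 fell, where 4.96% of all genes fell, and for ADF+ENZ 0 rose and 8 fell, where 6.53% did. Whether these small counts differ from the shares over all genes was not tested. Of 16 genes of interferon gamma signalling to the MHC, 5 fell in ADF+ENZ, among them the transcription factors Stat2 (-0.68 ± 0.13, adjusted p = 0.0023), Irf9 (-0.51 ± 0.11, 0.00558) and Irf1 (-0.42 ± 0.12, 0.0304), and the kinase Jak2 (-0.31 ± 0.10, 0.0491). In ENZ only Stat2 of this list fell (-0.64 ± 0.13, adjusted p = 0.00545), and in ADF none of the 16 was called. Of 7 folding chaperones and editors of class I, 4 fell in ADF: the lectin chaperones Calr (-0.55 ± 0.10, adjusted p = 0.00315) and Canx (-0.36 ± 0.10, 0.0327), and the disulfide isomerases Pdia3 (-0.39 ± 0.10, 0.0231) and Pdia6 (-0.38 ± 0.11, 0.0297). In ENZ, Lnpep, an endosomal aminopeptidase, fell (-0.52 ± 0.09, adjusted p = 0.00263), as did Uggt1, a glycoprotein folding sensor (-0.31 ± 0.08, 0.0305). Of 12 endosomal proteases and editors of class II, 4 fell in ADF, among them the protease inhibitor Cst3 (-0.67 ± 0.16, adjusted p = 0.0155) and the cathepsins Ctsz (-0.49 ± 0.09, 0.00392), Ctsb (-0.37 ± 0.11, 0.0484) and Ctsl (-0.47 ± 0.15, 0.0497). Cst3 fell in all 3 treated groups, with -0.62 ± 0.16 in ENZ (0.0291) and -0.76 ± 0.16 in ADF+ENZ (0.00535). None of the 6 immunoproteasome and proteasome activator genes and none of the 6 tested further H2 genes was called in any comparison, with list medians against Vehicle between -0.34 and 0.28. Many of these lists' genes are also expressed by macrophages and other leukocytes, of which 5 of 9 leukocyte markers and 3 of 12 macrophage markers fell in ADF+ENZ; their part in these changes was not tested.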

How the data were processed

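RNA-seq of 16 tumours was used. Per the submitters' processing notes, Trim Galore, HISAT2, featureCounts and DESeq2 were used with builds mm39 and GRCh38; no source used here gives versions or the strand setting. The authors deposited raw counts per Ensembl gene; 5 summary entries of the kind htseq-count writes were kept out of library sizes and tests (reads in no feature, 21.2 to 36.7% of reads). Symbols matched 52081 of 55414 identifiers. Counts were fitted with edgeR 4.0.16 (R 4.3.3; robust quasi-likelihood, TMM, filterByExpr with minimum count 10 and total 15) over all 16 libraries, giving 18946 tested genes; SE is the absolute log2 fold change over the square root of F, CPM are TMM-scaled, and log2 CPM has a prior count of 2. Calls used an adjusted p under 0.05. Numbers in the labels name single tumours and pair nothing; replicates of a group differed beyond counting noise (chi-square per degree of freedom 5.79 to 38.6 over 24 pairs). Every tumour has its own number, but whether some came from 1 host is not stated, so a p-value here covers the spread among these libraries alone. Of 24 alternatives, 16 left out 1 library; the others were DESeq2 1.42.0, DESeq2 size factors in edgeR, limma-voom 3.58.1 with quality weights, no filter, a filter of 1 CPM in 4 libraries, only the 2 groups compared, and the mean log2 CPM of the leukocyte markers or the share of reads in no feature as covariate. On simulated counts the fit recovered, of 100 genes changed 2-fold, 69% for ENZ and 75% for ADF against Vehicle, and, of 100 changed 4-fold, 100% and 96% (18620 and 18675 genes). A floor for a count of 0 is 3 counts and covers counting error only. All members are accounted for; values per tumour are given for each called member and for the highest member of each role, and for pathway lists up to 4 called genes per list and comparison by smallest adjusted p. Members and lists were chosen with earlier results of these data known. Promoter sequences are from RefSeq (GRCm38.p6), a build other than that of the counts. Some marker and pathway genes of the lists are not reported here.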

Additional observations from a re-analysis of the deposited data

Results flagged for a closer look

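Among 120 groups of 4 libraries checked for a value far from the other three, 7 had one; chance flags about 1 in 20. H2-T22 was at 55.2 CPM in the fourth ADF+ENZ tumour, with the others at 42.1 to 42.6. Cd1d1 was at 2.44 CPM in the first Vehicle tumour (others 1.37 to 1.51) and at 1.31 CPM in the third ADF+ENZ tumour (others 3.45 to 3.64). Tap1 was at 20.1 CPM in the first ENZ tumour (others 22.8 to 23), a small gap in a narrow group. H2-DMb1 was at 23.4 CPM in the second ENZ tumour (others 12.7 to 13.7). Ctss was at 333 CPM in the second ADF tumour (others 447 to 469). Rfxank was at 8.50 CPM in the first ENZ tumour (others 7.15 to 7.27).

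For 3 of the 47 tested pathway genes the change with fasting differed with and without enzalutamide by edgeR's interaction test, where 3.1% of all genes were called. Whether this small count differs from that share was not tested. The interaction was 0.63 ± 0.14 for Canx (adjusted p = 0.0279), 0.83 ± 0.21 for Ctsl (adjusted p = 0.0385) and 0.49 ± 0.13 for Lnpep (adjusted p = 0.0468), all on the log2 scale. Canx and Ctsl fell in ADF against Vehicle and were higher in ADF+ENZ than in ADF (0.47 ± 0.10, adjusted p = 0.00729, and 0.79 ± 0.15, adjusted p = 0.00369).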

How the results depend on the processing

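The number of members called in ENZ against Vehicle was 2 in the reported fit, 5 with DESeq2, 4 with only the 2 groups compared, and 2 to 3 over the fits that left out 1 library. H2-T23 and Tapbp were called in every alternative. Over all genes, the reported fit called 342 higher and 686 lower of 18946. Those counts were 551 and 1043 of 14903 with DESeq2, and 227 and 528 of 17897 with only the 2 groups. In ADF against Vehicle it was 6, but 3 with no filter, 0 with the leukocyte covariate, 0 with reads in no feature as covariate (a fit that called only 1 gene higher and 5 lower over the whole table, so its 0 is uninformative), and 0 to 6 without 1 library. Over all genes, the reported fit called 767 higher and 940 lower of 18946. Those counts were 562 and 958 of 37369 with no filter, and 367 and 513 of 18946 with the leukocyte covariate. They were 289 and 488 without the second Vehicle tumour. Without the first or the fourth ADF tumour they were 631 and 756, and 232 and 378. In ADF+ENZ against Vehicle it was 5, but 9 with DESeq2 (1 higher, 8 lower), 3 with only the 2 groups, 1 with the leukocyte covariate (H2-T23), and 3 to 14 without 1 library. Over all genes, the reported fit called 1131 higher and 1238 lower of 18946, and DESeq2 1353 and 1499 of 18942. Those counts were 755 and 976 of 17599 with only the 2 groups, and 208 and 299 of 18946 with the leukocyte covariate. In ADF+ENZ against ADF it was 2 (also 2 with no filter, there H2-T24 and H2-Q10), but 4 with limma-voom (2 higher, Mr1 and Cd1d1), 0 with only the 2 groups, 1 with the leukocyte covariate, 0 with reads in no feature as covariate, and 0 to 4 without 1 library. The fit with reads in no feature called 0 genes higher and 0 lower over the whole table, so its 0 is uninformative. Over all genes, the reported fit called 1652 higher and 1429 lower of 18946, and limma-voom 2290 and 2203. Those counts were 1322 and 1326 of 17199 with only the 2 groups, and 1387 and 1228 with the leukocyte covariate. In ADF+ENZ against ENZ it was 0 in all alternatives. The interaction had 0 calls, but 1 with DESeq2 (H2-D1, higher), 1 with the leukocyte covariate (Tapbp, higher), and 0 without any 1 library. Over all genes, the reported fit called 413 higher and 174 lower of 18946 in the interaction. Those counts were 946 and 417 of 15638 with DESeq2, and 529 and 250 of 18946 with the leukocyte covariate. In ADF+ENZ against Vehicle the leukocyte covariate turned H2-Aa from -0.61 to 0.029 and Ciita from -0.84 to 0.0070, neither called. The cause of these shifts was not tested. No paired analysis was possible because the labels give each tumour a number of its own and share none between groups. Members under about 1 CPM rest on few counts, and the class II chains on 4 widely spread tumours a group.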
